A study of Mus musculus with 127 samples.

Results

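The genes described here are 7 mouse genes of the EGFL and MEGF families, Egfl6, Egfl7, Egfl8, Megf6, Megf9, Megf10 and Megf11, out of 54838 gene rows shared by the deposited count tables. They were taken from a list of names and followed through every table, by cell fraction and Chd8 genotype. The family was chosen by the measured difference of Egfl6 and Megf6 between heterozygous and wild-type whole cortex of the germline line, where they went in opposite directions. Their values in that comparison are therefore given as a description, without a test.

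The study measured poly(A) RNA by sequencing in cortex of mice aged around postnatal day 60, to compare Chd8 mutants with controls in the whole tissue and in cell compartments. Chd8 encodes a chromatin remodeller, and loss-of-function mutations in it are associated with autism. Synaptic and cytosolic fractions were separated from frozen cortex with a synaptosome reagent, and nuclear fractions with a nuclear extraction reagent. The labels describe the material as mixed cortical cells. The germline groups were Chd8+/5bpdel heterozygotes (HET) and wild-type littermates (WT), with 16 HET and 15 WT whole cortex libraries, 9 HET and 12 WT nuclear libraries, 7 HET and 11 WT synaptic libraries and 7 HET and 5 WT cytosolic libraries. In the conditional line a floxed Chd8 allele is removed by Cre under the Camk2a promoter, which is active in excitatory forebrain neurons, so that other cells keep the allele. By title, conditional whole cortex comprised 6 Camk2a-CRE Chd8+/flox libraries and 8 Chd8+/flox libraries without Cre, so both groups carry the floxed allele and the effects of Cre and of deletion cannot be told apart there. In the conditional fractions every group carries Camk2a-CRE by title, with Chd8+/flox (HET), Chd8flox/flox (HOM) or Chd8+/+ (WT). The nuclear fraction had 6 HET, 3 HOM and 4 WT libraries, and the synaptic fraction 5 HET, 5 HOM and 4 WT libraries.

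The EGF-like domain is a small protein module held together by disulfide bonds between conserved cysteines, and it occurs in many secreted and cell-surface proteins. Egfl6 is a secreted matrix protein that binds integrins, Egfl7 is secreted mainly by endothelial cells and acts in blood vessel formation, and Egfl8 is its closest paralogue. Megf6 carries many EGF-like repeats, Megf9 is a membrane protein found in the nervous system, and Megf10 and Megf11 are related surface receptors. Megf10 acts in engulfment by astrocytes, and in mouse retina Megf10 and Megf11 act in the regular spacing of neurons.

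Depth per library was 19.002 to 30.5 M (mega reads) for germline whole cortex, 98.1 to 134.6 M for conditional whole cortex and 23.2 to 56.6 M for the fractions. Chd8, checked first, had 41.7 to 81.3 CPM (read counts per mega reads of the library) in HET germline cortex, against 65.9 to 111.8 CPM in WT. In the germline nuclear fraction it had 94.3 to 147.3 CPM in HET and 92.0 to 130.8 CPM in WT, so its level there did not separate the labels. Cre reads were 0 in both libraries of 1 conditional HET animal, and another animal was labelled HET in its nuclear library and HOM in its synaptic library. One pair of WT germline libraries listed under the same animal number carried sex markers of both sexes. The germline nuclear library of HET female replicate 4 had 0.43 CPM of the sex marker Xist and 0 CPM of Ddx3y, so its sex label was not borne out. The synaptic libraries of WT male replicates 1 and 2 both stood apart: Malat1, a nuclear RNA, had 857 to 1222 CPM in them and 18.2 to 184.4 CPM in the other 16 synaptic libraries. Their summed CPM of 12 endothelial markers was 603 to 676, against 20.8 to 52.6 in the others. Results on germline synaptic libraries are therefore given with and without these 2. No marker of the cell type lists was at 0 in all libraries of any group, and excitatory neuron markers summed to at least 6530.5 CPM in every germline cortex library.

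On GRCm38 with GENCODE release M21, Egfl6 lies at chrX:166523007-166585720 on the minus strand, Egfl7 at chr2:26580014-26593120 and Megf6 at chr4:154170730-154275713, both on the plus strand. Egfl8 lies at chr17:34613349-34615971 on the minus strand, Megf9 at chr4:70427065-70534995 on the minus strand, Megf10 at chr18:57133090-57297467 on the plus strand and Megf11 at chr9:64385626-64709205 on the plus strand. All 7 are protein-coding genes, and the values below are reads in their exons.

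The exons of Egfl7 contain Mir126a and share 264 bases with Gm20532 on the same strand. Egfl8 shares 615 exon bases (34.9% of its total) with Gm20460 on the same strand and 101 with Agpat1 on the opposite strand, so part of its reads cannot be told apart from theirs.

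The 250 bases before the RefSeq start (GRCm38.p6) are shown for Egfl6 and Megf6, since these differed in opposite directions in HET cortex. The Egfl6 window is chrX:166585717-166585966 on the minus strand, and the Megf6 window is chr4:154170463-154170712 on the plus strand. Each is written 5′ to 3′ on the gene's strand, with CG in capitals.
Egfl6: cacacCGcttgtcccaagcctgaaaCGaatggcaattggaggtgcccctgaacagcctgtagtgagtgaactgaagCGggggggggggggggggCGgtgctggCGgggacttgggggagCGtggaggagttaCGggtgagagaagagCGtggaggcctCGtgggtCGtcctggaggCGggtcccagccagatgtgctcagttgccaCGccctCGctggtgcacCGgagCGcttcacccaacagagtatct
Megf6: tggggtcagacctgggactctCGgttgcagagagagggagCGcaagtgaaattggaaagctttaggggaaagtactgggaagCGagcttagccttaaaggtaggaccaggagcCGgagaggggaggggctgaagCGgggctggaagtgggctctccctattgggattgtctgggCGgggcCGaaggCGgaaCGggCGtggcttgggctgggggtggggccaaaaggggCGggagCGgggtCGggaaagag
The Egfl6 window holds 15 CG and 64.8% G or C, and the Megf6 window holds 13 CG and 63.2% G or C. CG reads the same on both strands and occurs in 92.1% of 32851 promoter windows of this length, with a median of 6 per window, and 27.3% of the windows hold at least 15 and 31.5% at least 13. Of the other members, Egfl8 has 5 CG in its window, Megf9 has 32, and Egfl7 has 3, 7 and 17 in 3 windows. These are counts of letters in the windows.

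Per exon length, Megf9 was the highest of the 7 genes in germline cortex. Its mean was 23.8 ± 4.44 reads per kilobase of exon and mega reads of the library (RPKM, SD, n = 16) in HET and 23.99 ± 2.55 RPKM (n = 15) in WT. Egfl7 averaged 4.39 ± 1.204 RPKM in HET cortex and 4.45 ± 1.05 in WT cortex, and Megf10 averaged 4.15 ± 0.56 in HET and 4.04 ± 0.55 in WT. These neighbours could not be put in order, since Egfl7 was above Megf10 in 19 of 31 libraries. Megf11 followed at 2.46 ± 0.26 RPKM in HET and 2.42 ± 0.20 in WT, below Megf10 in 31 of 31 libraries. Egfl6 averaged 1.76 ± 0.46 RPKM in HET and 1.06 ± 0.20 in WT, below Megf11 in 29 of 31 libraries. Megf6 (0.38 ± 0.14 in HET, 0.55 ± 0.12 in WT) and Egfl8 (0.39 ± 0.19 in HET, 0.36 ± 0.16 in WT) were the lowest. They overlapped, with Megf6 above Egfl8 in 22 of 31 libraries.

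The order differed by fraction. In the germline nuclear fraction Egfl7, the endothelial gene, averaged 13.3 ± 4.39 RPKM in HET and 17.98 ± 6.21 in WT, beside 15.5 ± 3.53 in HET and 16.4 ± 2.58 in WT for Megf9, and Megf9 was the higher in 11 of 21 libraries. Egfl8 and Megf6 were both above Egfl6 on average there. In the synaptic fraction Egfl8 averaged 0.26 ± 0.12 RPKM in HET and 0.30 ± 0.22 in WT, and Megf6 averaged 0.08 ± 0.03 in HET and 0.27 ± 0.34 in WT. Megf9 reached 38.1 ± 7.15 RPKM in HET synaptic libraries and 28.9 ± 10.9 in WT. In the conditional synaptic fraction Megf9 averaged 48.4 ± 4.29 RPKM in HET, 45.5 ± 2.46 in HOM and 43.2 ± 2.12 in WT, and it was above Megf10 in 14 of 14 libraries. The tables were not scaled together, so levels in different tables are set side by side only.

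**Figure D1:**
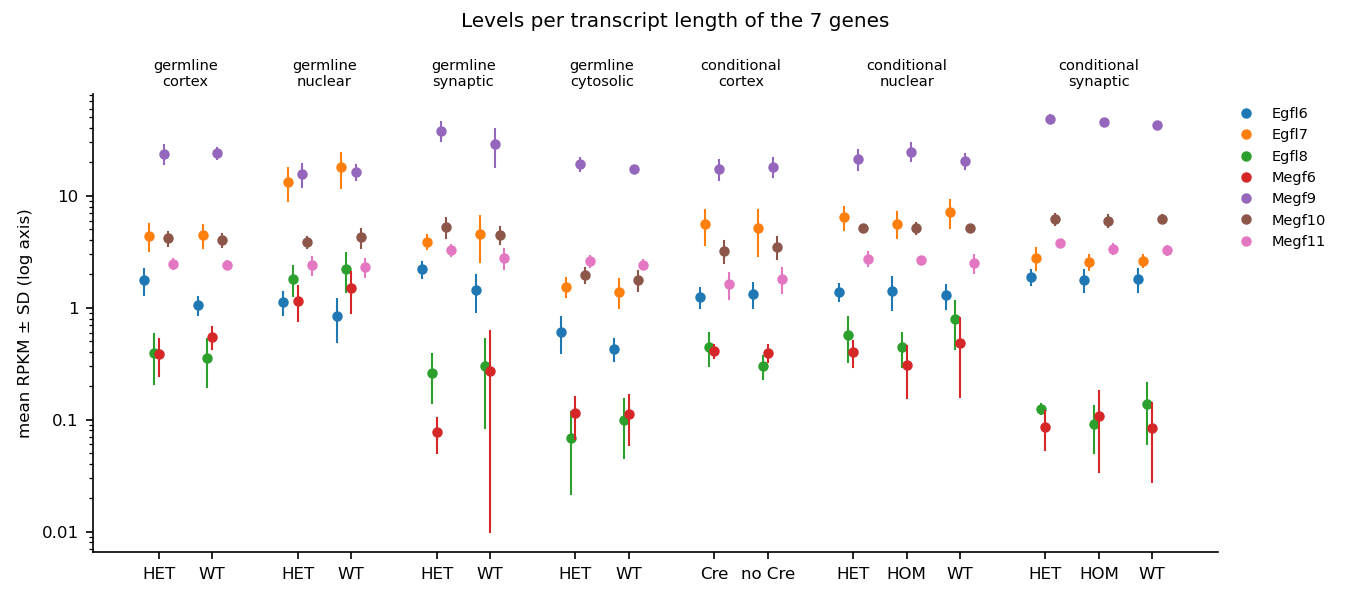
Mean level per exon length (RPKM, log axis, bars ± SD over libraries) of the 7 genes in each fraction, genotype and line. Megf9 is the highest in every group except germline nuclear WT, where Egfl7 averages 17.98 RPKM and Megf9 16.4 RPKM.

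Egfl6, the integrin-binding matrix gene, was higher in HET than in WT whole cortex of the germline line, and Megf6 was lower, which is the pattern that chose them. Egfl6 ranged from 2.98 CPM through a median of 4.60 to 7.03 CPM in 16 HET libraries, against 1.89, 2.77 and 3.86 CPM in 15 WT libraries. All 16 HET libraries lay above the WT median and 11 lay above every WT library, so that the groups overlapped only in part. Megf6 ranged from 1.16 through 2.94 to 5.98 CPM in HET, against 2.89, 4.02 and 5.94 CPM in WT. Here 15 of 16 HET libraries lay below the WT median and 8 below every WT library, while 1 HET library was above every WT library. The log2 fold change from edgeR, a count model, was 0.70 (SE 0.11) for Egfl6 and -0.54 (SE 0.13) for Megf6. In bulk samples fewer cells of a type and less RNA per cell cannot be told apart.

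The values are given next by sequencing batch of the labels, as a description, since these libraries chose the genes. In batch CHD80456, Egfl6 averaged 5.51 ± 1.05 CPM in 8 HET and 2.86 ± 0.72 CPM in 7 WT libraries, and in batch CHD807 it averaged 4.02 ± 0.96 CPM in 8 HET and 2.85 ± 0.38 CPM in 8 WT libraries. Megf6 averaged 3.68 ± 0.99 CPM in HET and 4.49 ± 1.15 CPM in WT in the first, and 2.38 ± 0.75 CPM in HET and 4.13 ± 0.79 CPM in WT in the second. The other 5 genes were close between genotypes, with log2 fold changes from -0.05 (Egfl7, SE 0.11) to 0.05 (Egfl8, SE 0.21). Megf9 had 128 to 258 CPM in HET and 150 to 236 CPM in WT, Megf10 26.2 to 39.9 CPM in HET and 24.4 to 38.1 CPM in WT, and Megf11 23.2 to 34.4 CPM in HET and 23.2 to 30.9 CPM in WT. In these 3 genes the groups overlapped over nearly their whole ranges. Of all 17074 genes tested, 0.334% were called at an adjusted p under 0.05. Egfl6 and Megf6 were among them, which their choice fixed. When 1 of the 31 libraries was left out at a time, Egfl6 was called in 31 fits and Megf6 in 7, so that 24 of the libraries each ended the Megf6 call. Only 1 member was called with no filter on low counts, with no other covariates or with the replicate block, and 0 were called within either batch alone. As the same libraries chose both genes, these counts describe how the calls depend on the fit and are no test of them.

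**Figure D2:**
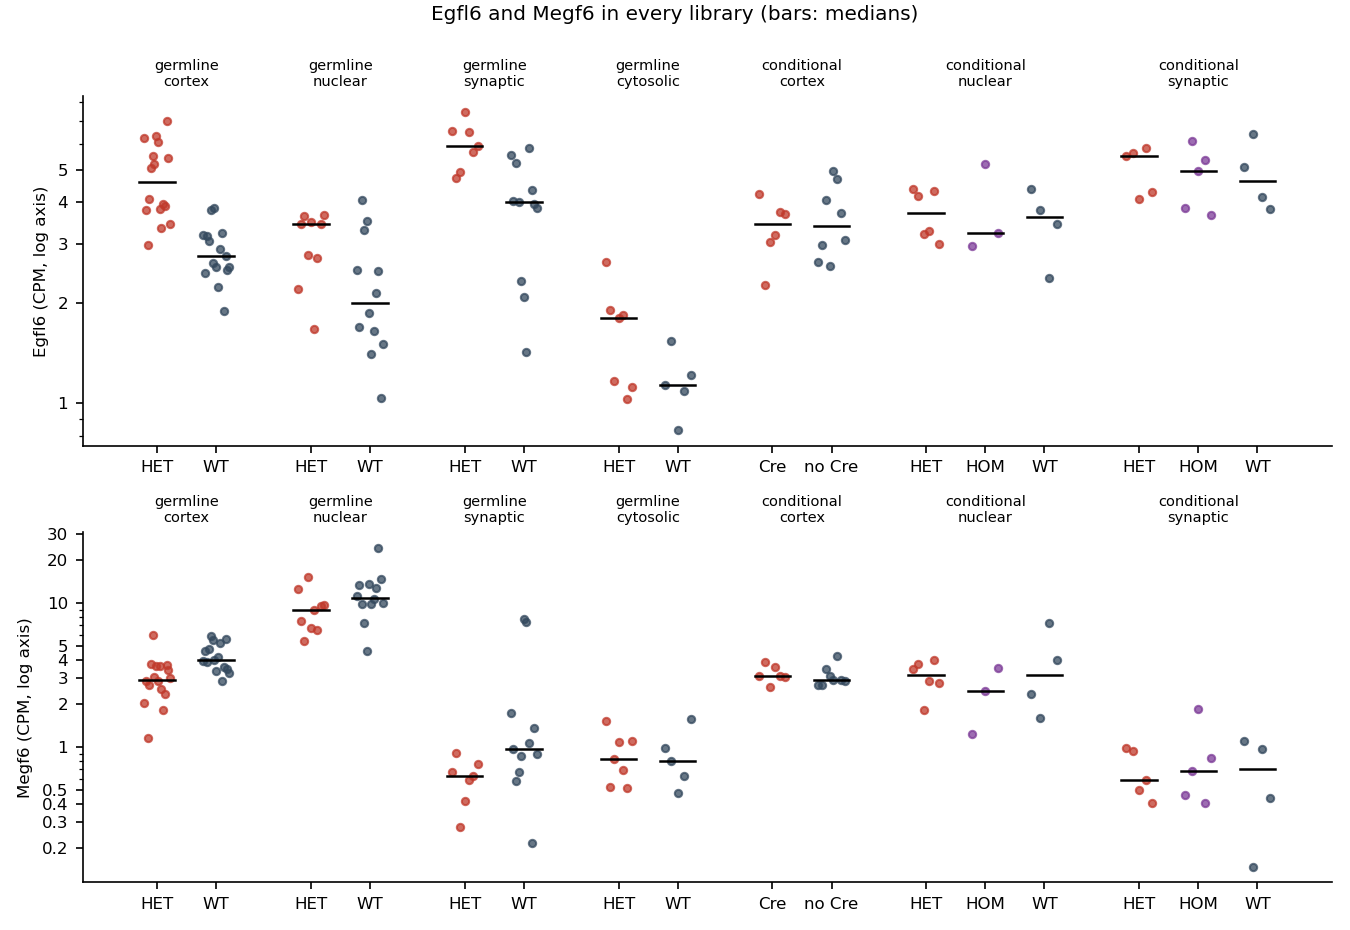
Egfl6 (top) and Megf6 (bottom) in CPM (log axis), 1 point for each library, with the median of each group as a bar. In germline cortex 11 of 16 HET points of Egfl6 lie above every WT point, and 8 of 16 HET points of Megf6 lie below every WT point.

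Markers of other cell types were read beside this comparison. Of 11 choroid plexus and ependyma markers 10 had negative fold changes in HET cortex, with a median log2 of -0.97, and 2 of them, Aqp1 (-1.93) and Ttr (-2.99), were called lower. Their summed level was 14.8 to 62.7 CPM in HET and 17.7 to 554.7 CPM in WT. Of 12 meningeal fibroblast markers, 11 had positive fold changes with a median of 0.24 and 0 called, and their sum was 150.7 to 237.6 CPM in HET and 124.7 to 221.8 CPM in WT. Endothelial markers summed to 136.9 to 483.6 CPM in HET and 205.1 to 424.1 CPM in WT. All genes had a median log2 of -0.001 in this comparison. The part of these cell types in the values of Egfl6 and Megf6 was not tested.

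In the 3 germline fractions, comparisons that the choice of the genes did not use, edgeR's quasi-likelihood test with Benjamini-Hochberg adjustment over all genes called none of the 7 genes between HET and WT. In the nuclear fraction Egfl6 had 1.67, 3.44 and 3.66 CPM (lowest, median, highest) in HET and 1.04, 2.00 and 4.06 CPM in WT. Of 9 HET libraries, 8 lay above the WT median but none above every WT library. On the log2 scale the difference was 0.40 (SE 0.21, 95% interval -0.03 to 0.83, adjusted p = 0.718). Megf6 had 5.42, 9.00 and 15.1 CPM in HET nuclei and 4.64, 10.9 and 24.03 CPM in WT, with a log2 fold change of -0.36 (SE 0.17, unadjusted p = 0.04, adjusted p = 0.637 by edgeR). Of the 19912 genes tested there, 0.0151% were called at the adjusted threshold and 7.38% had an unadjusted p under 0.05, as had 1 of the 7 members.

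Egfl7, which is secreted by endothelial cells, had 32.7, 42.9 and 82.5 CPM in HET nuclei and 30.95, 59.3 and 106.6 CPM in WT nuclei. It had a log2 fold change of -0.35 (SE 0.18, edgeR adjusted p = 0.696), and 8 of 9 HET libraries were below the WT median. With no filter on low counts its adjusted p was 0.0162, in a range of 0.0162 to 0.934 over 27 alternatives. All 12 endothelial markers and all 10 mural markers had negative fold changes in the same comparison (medians -0.43 and -0.28, beside 0.01 for all genes, 0 called). The endothelial sum was 844 to 1891 CPM in HET and 949 to 2662 CPM in WT, and its part in the Egfl7 value was not tested. Egfl8 had 1.94 to 4.91 CPM in HET nuclei and 1.97 to 7.35 CPM in WT. Megf9, Megf10 and Megf11 had log2 fold changes of -0.08, -0.11 and 0.04 and 95% intervals that ran from -0.31 at the lowest (Megf10) to 0.23 at the highest (Megf11).

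In the germline synaptic fraction no batch group (batch labels joined) held males of both genotypes. Among its males, genotype therefore cannot be told apart from batch in raw values. The fits include sex and batch group as covariates. Egfl6 had 4.73, 5.92 and 7.47 CPM in 7 HET synaptic libraries and 1.43, 4.00 and 5.83 CPM in 11 WT synaptic libraries. All 7 HET libraries lay above the WT median and 4 above every WT library. This amounted to a log2 difference of 0.61 (SE 0.20, 95% interval 0.18 to 1.04), with an unadjusted p of 0.00779 and an adjusted p of 0.334 by edgeR. Without WT male replicates 1 and 2 it was 0.47 (SE 0.14, edgeR adjusted p = 0.0896). In the fit on all 18 libraries 0 of 17178 genes passed the adjusted threshold, and 11% of them reached an unadjusted p below 0.05. The fit on 16 libraries called 142 of 16862 genes (0.842%), and none of the members in either.

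Megf6 had 0.28, 0.62 and 0.90 CPM in HET synaptic libraries and 0.22, 0.97 and 7.73 CPM in WT, and 7 of 7 HET libraries were below the WT median. The highest WT values, 7.73 and 7.41 CPM, belong to WT male replicates 1 and 2, and the next WT library had 1.72 CPM. The fitted log2 difference was -1.13 (SE 0.50, edgeR adjusted p = 0.42), and -0.84 (SE 0.36, adjusted p = 0.204) without these 2. Few reads lie behind these levels, 8 to 36 per HET library. Endothelial markers had a median log2 of -0.42 in this comparison and of -0.05 without both WT males, with 0 called in each case.

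Megf9, the membrane protein gene, had 203, 327 and 378 CPM in HET synaptic libraries and 124, 255 and 358 CPM in WT, with 6 of 7 HET libraries above the WT median. Its log2 fold change was 0.37 (SE 0.15, unadjusted p = 0.0209, adjusted p = 0.363 by edgeR). With single batch labels in place of batch groups it was 0.40 with an adjusted p of 0.042, the lowest in a range of 0.042 to 1 over 26 alternatives. Without both WT males it was 0.27 (adjusted p = 0.169). Megf11 had 31.4, 36.7 and 44.3 CPM in HET and 20.5, 29.6 and 42.9 CPM in WT, and all 7 HET libraries were above the WT median, with a log2 fold change of 0.20 (SE 0.14, edgeR adjusted p = 0.636). Megf10 (0.13, SE 0.07), Egfl7 (0.05, SE 0.17) and Egfl8 (0.30, SE 0.43) did not pass the test either.

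In the cytosolic fraction Egfl6 had 1.03, 1.80 and 2.66 CPM in 7 HET libraries, against 0.83, 1.09, 1.13, 1.22 and 1.54 CPM in the 5 WT libraries. The groups overlapped, with 4 of 7 HET libraries above every WT library. The log2 difference was 0.28 (SE 0.24, 95% interval -0.23 to 0.80, edgeR adjusted p = 1). Megf6 had 0.51, 0.83 and 1.52 CPM in HET and 0.48, 0.63, 0.80, 0.99 and 1.57 CPM in WT, a log2 fold change of -0.05 (SE 0.37). Egfl8 had 1 to 9 reads per HET library and 2 to 14 per WT library and did not pass the filter on low counts. The other 4 genes had log2 fold changes from 0.06 (Megf10) to 0.27 (Egfl7), all with an adjusted p of 1. Of 18454 genes 0% were called, and 3.28% had an unadjusted p under 0.05.

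**Figure D3:**
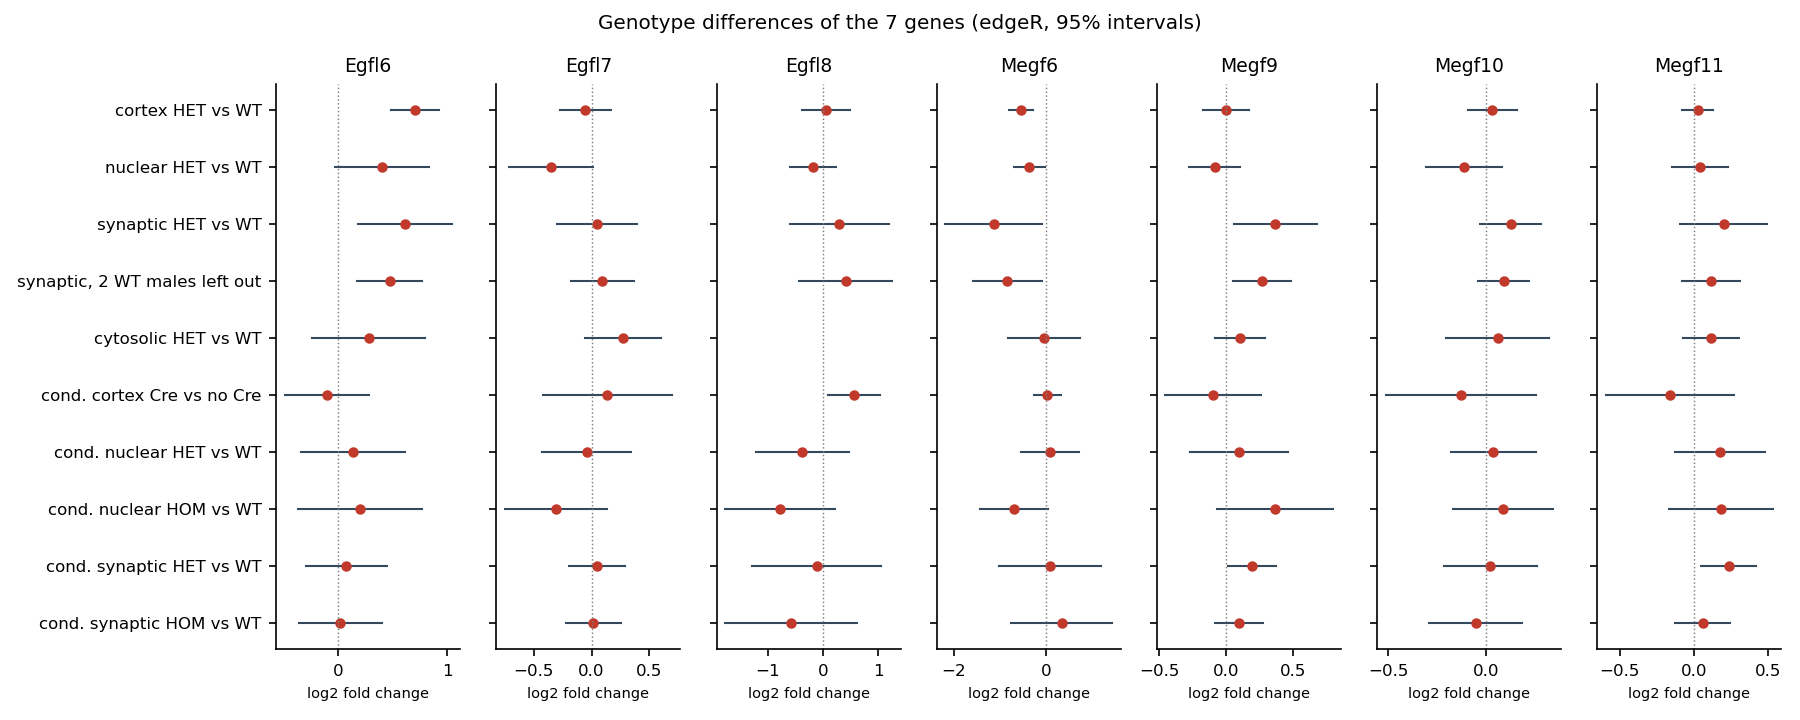
Log2 fold change (horizontal axis, scale differs by panel) of each gene between genotypes, as points with 95% intervals from edgeR. Egfl6 lies right of 0 and Megf6 left of 0 in the 4 germline comparisons, of which whole cortex chose both genes. Cytosolic Megf6 is at -0.05 (SE 0.37). Both genes have values on both sides of 0 in the conditional line, where Megf6 is lowest in HOM nuclei at -0.69 (95% interval -1.42 to 0.04). Egfl8 has no value in the cytosolic fraction.

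In the conditional line edgeR called none of the 7 genes in any of 5 comparisons, in which 0% of all genes were called. Chd8 itself had log2 fold changes of -0.52 (SE 0.20) in Cre cortex, -0.06 (SE 0.13) in HET nuclei and -0.47 (SE 0.16) in HOM nuclei. In synaptic libraries it had -0.21 (SE 0.17) in HET and -0.57 (SE 0.18) in HOM. By edgeR its unadjusted p was 0.0184 in Cre cortex, 0.0104 in HOM nuclei and 0.00462 in HOM synaptic libraries. The adjusted p-values there were 0.882, 0.426 and 0.923. In the HET fractions the unadjusted p was 0.681 (nuclear) and 0.242 (synaptic). These comparisons thus did not call the deleted gene itself, which limits what the absence of calls among the 7 genes can show. Egfl6 in whole cortex had 2.27, 3.45 and 4.25 CPM in 6 Cre libraries and 2.57, 3.40 and 4.97 CPM in 8 libraries without Cre, a log2 fold change of -0.10 (SE 0.18, 95% interval -0.49 to 0.28). Megf6 had 2.60, 3.11 and 3.89 CPM with Cre and 2.70, 2.93 and 4.28 CPM without Cre, a log2 fold change of 0.03 (SE 0.14, 95% interval -0.27 to 0.32). In both genes the Cre libraries lay largely within the range of those without Cre. The 2 lines were not compared in a test.

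Egfl8, the paralogue of Egfl7, was the only member with an unadjusted p under 0.05 in conditional cortex. It had 0.60, 0.67 and 1.23 CPM with Cre and 0.29, 0.55 and 0.67 CPM without, and all 6 Cre libraries were above the median of the others. On the log2 scale the difference was 0.56 (SE 0.22, unadjusted p = 0.0216, adjusted p = 0.882 by edgeR), and 3.08% of all 21798 genes had an unadjusted p under 0.05. It rests on 32 to 121 reads per library.

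In the conditional nuclear fraction Egfl6 had a median of 3.73 CPM in 6 HET libraries, 2.96, 3.24 and 5.23 CPM in the 3 HOM libraries and 2.37, 3.44, 3.81 and 4.38 CPM in the 4 WT libraries. Log2 fold changes were 0.14 (SE 0.23) for HET and 0.20 (SE 0.27) for HOM, and the groups overlapped. Megf6 had a median of 3.18 CPM in HET, 1.22, 2.44 and 3.55 CPM in HOM and 1.58, 2.33, 4.01 and 7.29 CPM in WT, with log2 fold changes of 0.08 (SE 0.30) and -0.69 (SE 0.35, edgeR adjusted p = 0.443). Egfl7 (-0.31, SE 0.21) and Egfl8 (-0.78, SE 0.47) were lower in HOM nuclei without passing the test, and Megf9 was higher (0.37, SE 0.20, adjusted p = 0.473). Beside them, all 12 endothelial markers had negative fold changes in HOM nuclei (median -0.98, against -0.01 for all genes, 0 called), and their part in these values was not tested. With 3 HOM libraries the 95% intervals are wide, from -1.77 to 0.22 for Egfl8.

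In the conditional synaptic fraction Megf11 had 37.9, 42.6, 43.1, 43.4 and 44.9 CPM in HET, 32.3, 35.6, 36.1, 40.1 and 42.0 CPM in HOM and 32.3, 35.6, 37.3 and 40.2 CPM in WT. Of 5 HET libraries 4 were above every WT library, while HOM libraries overlapped with WT. This amounted to a log2 difference of 0.24 in HET (SE 0.09, unadjusted p = 0.0154, adjusted p = 0.995 by edgeR) and 0.06 in HOM (SE 0.09). Megf9 followed with 0.19 in HET (SE 0.09, unadjusted p = 0.0379) and 0.10 in HOM (SE 0.09). Of all 17505 genes, 4.37% had an unadjusted p under 0.05 in HET. Egfl6 had 4.11, 4.30, 5.50, 5.62 and 5.84 CPM in HET, 3.66, 3.85, 4.95, 5.35 and 6.13 CPM in HOM and 3.83, 4.16, 5.12 and 6.40 CPM in WT, and its log2 fold changes were 0.08 (SE 0.18) and 0.02 (SE 0.18).

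Female and male whole cortex of the germline line differed most in Egfl8 among the 7 genes. Egfl8 had a median of 0.85 CPM in 9 HET females and 0.84 CPM in 7 WT females, against 0.49 CPM in 7 HET males and 0.51 CPM in 8 WT males. The log2 fold change of females over males was 0.68 (SE 0.21, unadjusted p = 0.00322) with an adjusted p of 0.724 by edgeR, so it did not pass over all genes, of which 0.0761% were called and 6.37% had an unadjusted p under 0.05. Egfl6, an X-linked gene, had medians of 5.20 CPM in HET females, 3.91 CPM in HET males, 3.16 CPM in WT females and 2.56 CPM in WT males. Its log2 fold change of females over males was 0.22 (SE 0.11, edgeR adjusted p = 0.762). The interaction of sex with genotype was called for none of the 7 genes, with values of -0.15 (SE 0.22) for Egfl6 and -0.24 (SE 0.26) for Megf6.

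Within animals, Egfl6, Megf9, Megf10 and Megf11 were higher in the synaptic than in the nuclear fraction, and Egfl7, Egfl8 and Megf6 were lower, in WT mice of the germline line and again in HET. The edgeR test with the animal as a block called all 7 in both genotypes, 4 higher and 3 lower, against 62.9% of all 21515 genes called in HET and 64.6% in WT. Of these genes 26.8% were called higher and 36.2% lower in HET, and 29.3% higher and 35.2% lower in WT. With most genes called, the count of members says little, and the values of each gene follow. All 7 were called in both genotypes when any 1 animal was left out, the WT animal with mismatched sex markers among them. The counts of WT pairs below include that animal number (29M), although its libraries carry markers of different sexes and may not come from the same animal.

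The scaling sets where 0 lies in this comparison. The median of all genes was -0.19 in HET and -0.14 in WT with the TMM scaling of edgeR, and it moved by -0.60 in HET and -0.51 in WT when libraries were scaled by their totals. With totals, 9.9% of genes were called higher and 53.5% lower in HET, and 9.7% higher and 54.2% lower in WT. Megf10 in WT was then 0.03 (adjusted p = 0.876) and Megf11 in WT 0.25 (adjusted p = 0.0792), and neither was called, while no member changed direction. Measured from the median of all genes, Megf10 was 0.67 higher in WT synaptic libraries under either scaling and Megf11 0.90 higher with TMM and 0.89 with totals.

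Megf6, the secreted gene with many EGF-like repeats, fell in the synaptic fraction of both genotypes. It had 0.59, 0.63, 0.77, 0.67 and 0.28 CPM in the synaptic libraries of 5 HET animals, against 9.00, 6.51, 9.56, 12.6 and 5.42 CPM in their nuclear libraries. The nuclear library was the higher one in 5 of 5 HET animals and in 10 of 10 WT animals. Synaptic over nuclear, Megf6 gave a log2 fold change of -3.26 (SE 0.56, edgeR adjusted p = 0.000104) in HET and -2.57 (SE 0.40, adjusted p = 3.45e-05) in WT. Both WT males that stand apart had 7.73 and 7.41 CPM in synaptic and 9.91 and 10.7 CPM in nuclear libraries, and without them the WT value was -3.15 (SE 0.27).

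Egfl8 was also lower in every pair, with 0.19 to 0.68 CPM in synaptic and 2.33 to 4.91 CPM in nuclear libraries of HET animals, and 0.11 to 1.43 CPM in synaptic and 1.97 to 7.35 CPM in nuclear libraries of WT animals. Its log2 fold change was -2.48 (SE 0.38) in HET and -2.65 (SE 0.28) in WT, with edgeR adjusted p-values of 4.6e-05 and 7.84e-07. Egfl7 had 13.5, 14.6, 10.6, 13.02 and 14.6 CPM in synaptic and 42.9, 32.99, 48.7, 58.8 and 51.3 CPM in nuclear libraries of the HET animals, with no overlap. In WT pairs it had 11.9 to 34.3 CPM in synaptic and 30.95 to 106.6 CPM in nuclear libraries, which overlapped across animals but not within one. The Egfl7 log2 fold change was -1.21 (SE 0.22, adjusted p = 0.000219) in HET and -1.46 (SE 0.16, adjusted p = 1.25e-06) in WT.

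Markers of blood vessels moved in the same direction. All 12 endothelial markers were called lower in the synaptic fraction, with a median log2 of -4.89 in HET and -4.59 in WT, among them Cldn5 (-4.89 in WT), a tight junction gene, and Pecam1 (-4.32 in WT). The endothelial sum was 20.8 to 48.9 CPM in HET synaptic and 844 to 1891 CPM in HET nuclear libraries. Egfl7 fell less than the median of these markers, and the difference was not tested. Of 10 mural markers 9 were called lower in each genotype, and all 9 nuclear-retained RNAs were called lower in each. Over all genes 36.2% were called lower in HET and 35.2% in WT. The part of vessel cells and of nuclear RNA in the values of Egfl7, Egfl8 and Megf6 was not tested.

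**Figure D4:**
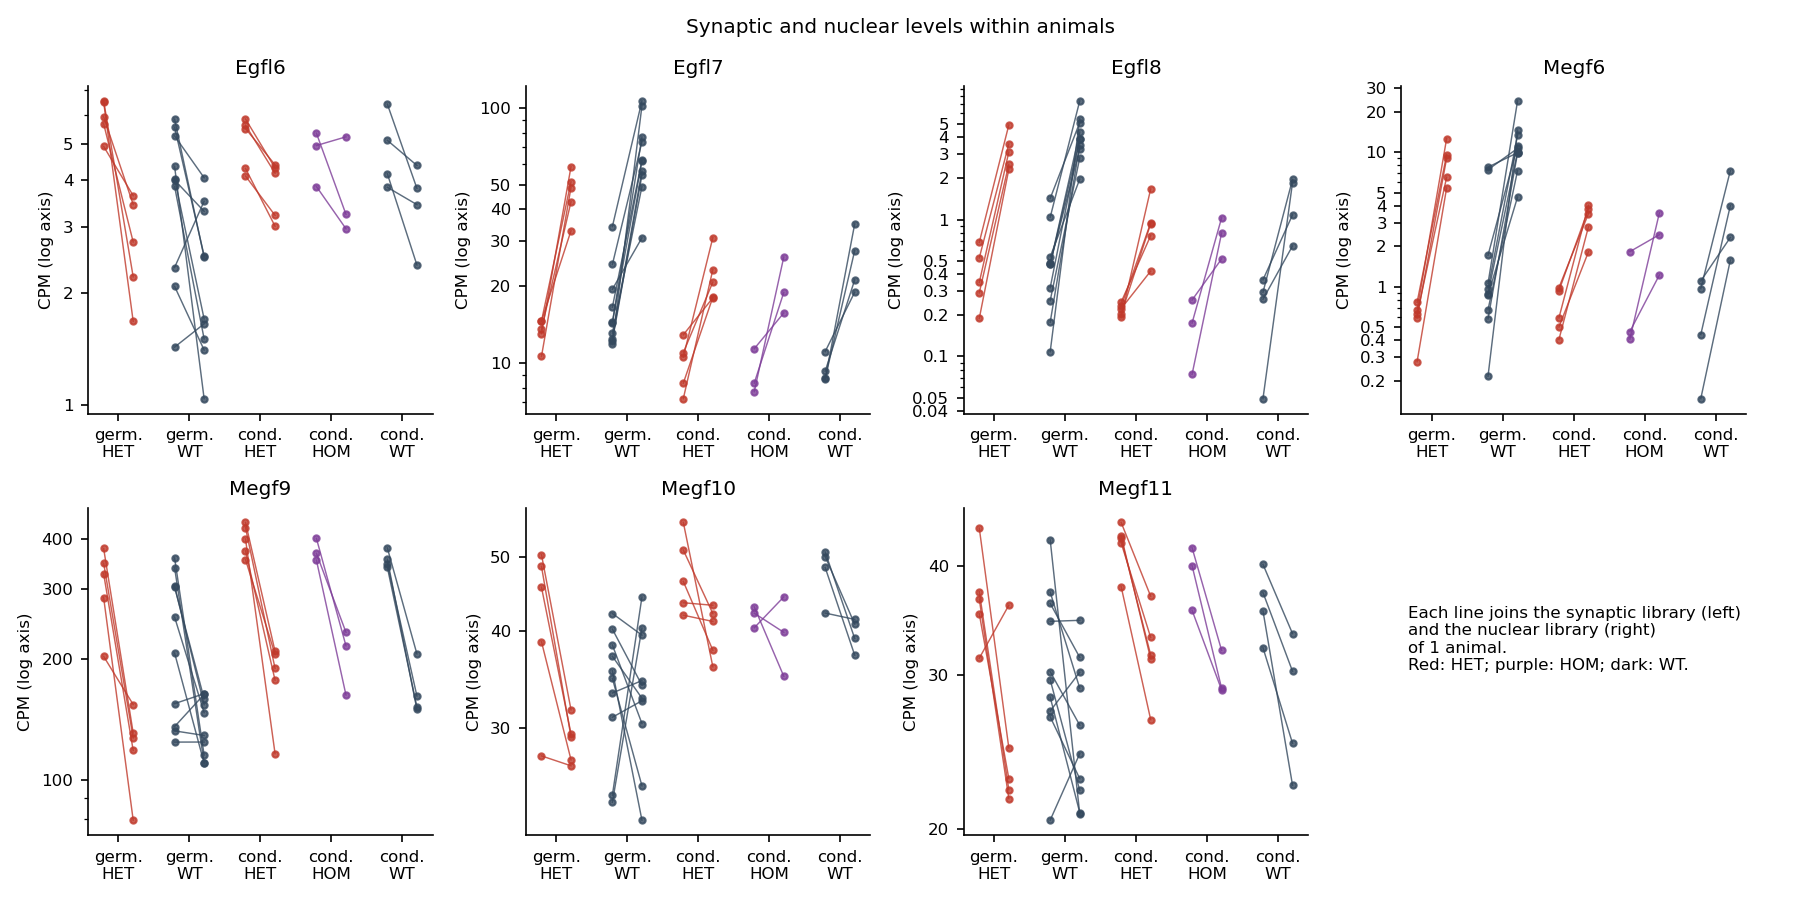
Level of each gene in CPM (log axis) in the synaptic (left end of each line) and nuclear library (right end) of 1 animal, by line and genotype. Every line of Egfl7, Egfl8 and Megf6 climbs to the nuclear side, and most lines of Megf9 climb to the synaptic side.

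Megf9 was the highest of the members that rose in the synaptic fraction. It had 347.65, 378, 285, 327 and 203 CPM in the synaptic libraries of the 5 HET animals, against 127, 131, 79.4, 118 and 154 CPM in their nuclear libraries. The synaptic library was the higher one in 5 of 5 HET and 7 of 10 WT animals. The fitted log2 difference was 1.94 (SE 0.30, edgeR adjusted p = 4.3e-05) in HET and 1.16 (SE 0.21, adjusted p = 0.000127) in WT, where it was 1.39 without both WT males that stand apart. With library totals it was 1.34 in HET and 0.65 in WT, and still called.

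Egfl6 had 6.48, 5.67, 5.92, 6.53 and 4.93 CPM in synaptic and 1.67, 2.73, 3.44, 2.20 and 3.64 CPM in nuclear libraries of the 5 HET animals, with no overlap. In WT animals it had 1.43 to 5.83 CPM in synaptic and 1.04 to 4.06 CPM in nuclear libraries, and it was higher in the synaptic library in 8 of 10. The log2 difference was 1.76 (SE 0.35, edgeR adjusted p = 0.000391) in HET and 1.26 (SE 0.25, adjusted p = 0.00034) in WT. With library totals it was 1.15 in HET and 0.74 in WT, called in both.

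The engulfment receptor gene Megf10 had 45.7, 48.6, 50.4, 38.8 and 27.6 CPM in synaptic and 29.4, 29.2, 31.6, 27.2 and 26.8 CPM in nuclear libraries of the HET animals. It was higher in the synaptic library in 5 of 5 HET but in 6 of 10 WT animals. On the log2 scale the difference was 1.12 (SE 0.20, edgeR adjusted p = 0.000148) in HET and 0.53 (SE 0.14, adjusted p = 0.00333) in WT. Megf11 had 31.4 to 44.3 CPM in synaptic and 21.7 to 36.1 CPM in nuclear libraries of HET animals and was the higher one in 4 of 5 HET and 7 of 10 WT pairs. Its log2 fold change was 1.16 (SE 0.19) in HET and 0.76 (SE 0.13) in WT. The WT animals without a rise of Megf10 were those numbered 12M, 13M, 4F and 5F, all of the same batch group. Those without a rise of Megf9, Egfl6 or Megf11 were among them. Of the HET pairs only 9F was in that group, and it was the pair in which Megf11 did not rise. Batch and genotype are thus not balanced in these pairs, and the part of batch was not tested.

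The difference of the compartment effects between HET and WT was tested in the same fit. It was called for none of the 7 genes and for 0% of all genes, of which 7.21% had an unadjusted p under 0.05. The smallest unadjusted p-values belonged to Megf9 (0.78, SE 0.36, unadjusted p = 0.0411, adjusted p = 0.588 by edgeR) and Megf10 (0.59, SE 0.24, unadjusted p = 0.0258, adjusted p = 0.588). Without both WT males they were 0.55 (SE 0.31) and 0.50 (SE 0.24). For Egfl6 it was 0.50 (SE 0.42), and for Megf6 -0.69 (SE 0.66), or -0.10 (SE 0.42) without both WT males. Batch groups were not balanced between the genotypes in these pairs, and their part in these values was not tested.

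The conditional line gave the same directions in each genotype, in separate animals. Of its 21577 genes tested 60.6% were called in HET, 48% in HOM and 61.5% in WT, and of the members 7, 6 and 7. Log2 fold changes of synaptic over nuclear were 1.73, 1.41 and 1.66 in HET, HOM and WT for Megf9, and 0.97, 0.85 and 1.04 for Egfl6. They were 0.97, 0.91 and 0.96 for Megf11, and 0.81, 0.60 and 0.84 for Megf10. For the genes lower in the synaptic fraction they were -0.59, -0.61 and -0.85 for Egfl7, -1.42, -1.69 and -1.92 for Egfl8, and -1.69, -1.03 and -1.99 for Megf6. Of these only Megf6 in HOM (SE 0.45, edgeR adjusted p = 0.0661) missed the threshold.

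Per animal, Megf9 had 355 to 439 CPM in synaptic and 116 to 209 CPM in nuclear libraries of 5 HET animals, and 339 to 379 CPM in synaptic and 150 to 206 CPM in nuclear libraries of 4 WT animals, with no overlap in either. Its 3 HOM animals had 401, 368 and 353.5 CPM in synaptic and 216, 234 and 163 CPM in nuclear libraries. Megf6 had 1.82, 0.46 and 0.41 CPM in synaptic and 2.44, 1.22 and 3.55 CPM in nuclear libraries of the HOM animals, lower in the synaptic library in 3 of 3. With library totals the median of all genes moved by -0.56 in HET, -0.52 in HOM and -0.57 in WT. Egfl6 in HOM was then 0.33 (adjusted p = 0.172) and Megf10 in HOM 0.08 (adjusted p = 0.606), and both lost their calls, while Megf6 in HOM was -1.54 (adjusted p = 0.00944) and gained one. Megf6 in HOM was also called with DESeq2 (adjusted p = 0.0375) and with no filter on low counts (adjusted p = 0.0173), in a range of 0.00944 to 0.588 over 17 alternatives. Leaving out the HOM animal numbered 72 left 3 members called in HOM, and leaving out the animal numbered 67 left Megf6 called and Egfl7 and Egfl8 not. Megf6 in HOM was called without the animal numbered 65 as well. Egfl8 in HOM also lost its call without any 1 of the animals numbered 46, 47, 55 and 62 (adjusted p = 0.0521 to 0.0594), and none of these is HOM. In HET, Egfl7 and Egfl8 lost their calls without animal 62 (adjusted p = 0.0629 and 0.0582) and Egfl8 without animal 63 (adjusted p = 0.0853), and in WT Egfl8 lost it without animal 94 (adjusted p = 0.0604). The number of members called over these fits was 5 to 7 in HET, 3 to 7 in HOM and 6 to 7 in WT. Only 3 HOM animals lie behind these values.

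**Figure D5:**
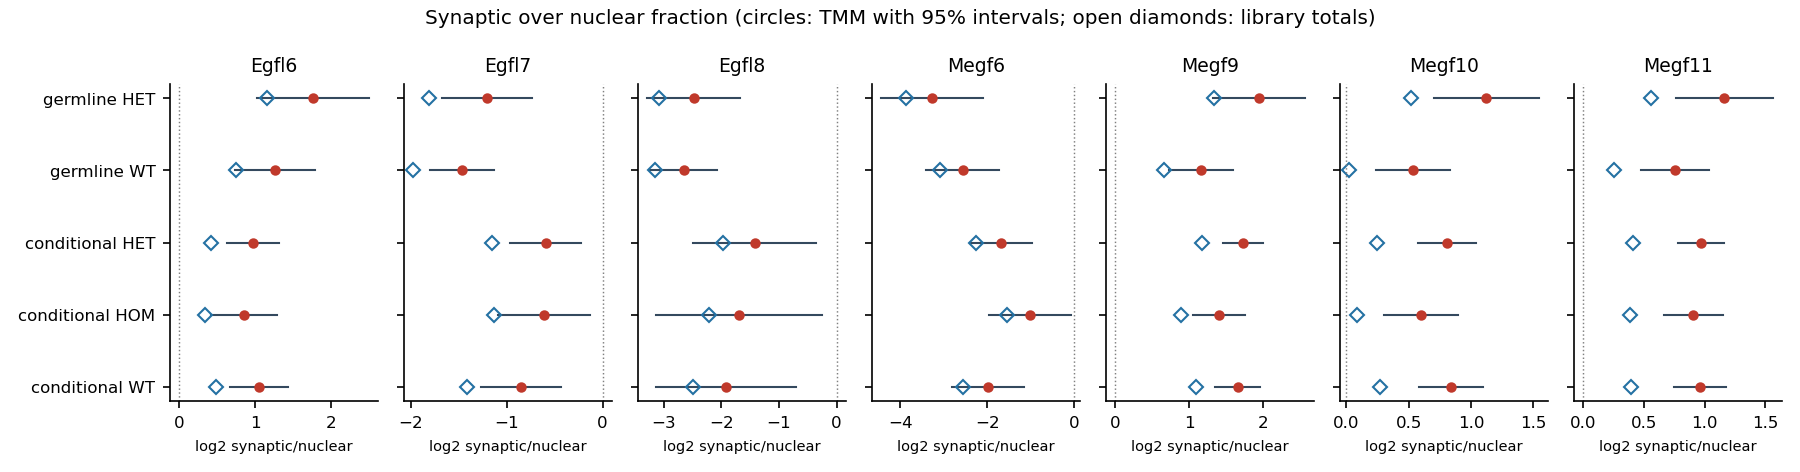
Log2 of synaptic over nuclear level (horizontal axis, scale differs by panel) of each gene by line and genotype. Circles with lines are edgeR estimates with TMM scaling and 95% intervals, and open diamonds are the estimates with library totals, which lie lower for every gene, with Megf10 in germline WT at 0.03.

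Related genes moved in both directions between compartments. Of 8 genes that were or are numbered as MEGF, 5 were called higher and 2 lower in synaptic than in nuclear libraries, in HET and again in WT. Over all genes 26.8% were called higher and 36.2% lower in HET, and 29.3% higher and 35.2% lower in WT, beside which the counts of this and the next 4 lists stand. In WT, Celsr2, an adhesion receptor with EGF-like repeats, was at 1.32 (SE 0.15), the secreted guidance gene Slit3 at 1.11 (SE 0.18) and Pear1, a relative of Megf10, at -2.76 (SE 0.29). Of 23 engulfment genes 14 were higher and 7 lower in HET, and 12 higher and 6 lower in WT, with Scarf1, a scavenger receptor gene, at -2.29 and the engulfment adaptor gene Gulp1 at -1.12 in WT. Of 12 integrin and matrix partner genes 4 were higher and 5 lower in HET, and 4 higher and 6 lower in WT, where the fibronectin gene Fn1 was at -2.49 (SE 0.26).

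Of 17 Notch pathway genes 2 were higher and 12 lower in HET, and 1 higher and 13 lower in WT, with medians of -0.64 and -0.78. The receptor gene Notch4 was at -2.80 and the ligand genes Dll4 and Jag1 at -3.66 and -1.65 in WT. Of 28 other secreted or matrix genes with EGF-like domains 10 were higher and 13 lower in HET, and 11 higher and 13 lower in WT, among them the basement membrane gene Nid1 at -1.79. All values are log2 fold changes by edgeR, and the medians of all genes were -0.19 in HET and -0.14 in WT. Between HET and WT in germline cortex 0 genes of these 5 lists were called, with list medians from -0.10 (MEGF-numbered) to 0.07 (integrins), beside -0.001 for all genes. In the germline nuclear comparison 16 of 17 Notch genes had negative fold changes (median -0.17, beside 0.01 for all genes) with 0 called. In the synaptic comparison Celsr2 had the smallest p of the MEGF-numbered genes (0.48, SE 0.11, edgeR adjusted p = 0.308). Without both WT males that stand apart 1 of the 8 MEGF-numbered genes was called between HET and WT synaptic libraries, beside 0.842% of all 16862 genes.

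Across the 31 germline cortex libraries, after the means of genotype, sex and batch were removed, the genes most like each member by Pearson correlation of log2 CPM were found among 12636 genes. They were Ushbp1 (0.88), Cldn5 (0.87) and Pstk (0.85) for Egfl7, Frrs1l (0.97), Rab11fip2 (0.97) and Man1a2 (0.97) for Megf9, and Myo6 (0.86), Plxnb1 (0.84) and Map4k4 (0.84) for Megf10. For Egfl6 they were Fam92a (0.70), Ciao2a (0.68) and Sult1a1 (0.66), for Megf6 Fubp3 (0.81), Taf1a (0.81) and Acad10 (0.80), for Egfl8 Lemd2 (0.76), Zfyve21 (0.74) and Sh3glb2 (0.74), and for Megf11 Prkca (0.74), Fstl4 (0.73) and Panct2 (0.72). Among the members, Egfl7 and Megf6 varied together (0.63), Megf9 varied against Egfl7 (-0.65) and Megf6 (-0.58), and Egfl6 with Megf6 gave 0.21. These libraries share depth and RNA composition, so the correlations are descriptions.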

How the data were processed

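Poly(A) RNA of cortex and of its fractions was sequenced paired-end, and for each gene the authors deposited its raw count. The submitters' processing notes name STAR 2.5.4b as aligner and featureCounts 2.0.0 as counter. For conditional cortex the file header names featureCounts 1.6.0 and Ensembl annotation 95, and shows neither a strand nor a pair option. For the other tables the sources used here do not give the strand setting. Among counts in a fixed low to moderate range, even counts made up 56.3 to 74.7% per library. Mates of a pair may thus have been counted separately, and totals are taken as reads. The analysis took in 123 of 127 libraries, leaving 4 cytosolic ones not analysed here. Another 16 are repeated across 2 tables, with the same counts, and entered once. A symbol was found for 54723 of 54838 IDs and not for 115. The row of Cre reads (at most 0.00135% of a library) was dropped.

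Groups follow titles and characteristics. The protocol text counts 6 WT and 8 floxed animals in conditional cortex, and the titles were followed. Comparisons were made in R 4.3.3 by the quasi-likelihood test of edgeR 4.0.16, which loads limma 3.58.1. They used TMM scaling, filterByExpr and Benjamini-Hochberg adjustment over all genes at 0.05. Sex and batch were covariates where labels give them. Simulated counts were run for the germline nuclear design only, with the same dispersion for all genes. That run does not cover the other designs or the real spread. The standard error is the fold change divided by the root of F. CPM is per total of gene counts, and RPKM divides it by merged exon length. Synaptic and nuclear libraries were blocked by the animal number in their names (15 germline and 12 conditional animals), where the median correlation of paired deviations was 0.12 and 0.25. One animal with different genotype labels was left out of the pairs. The titles number the libraries of a group as biological replicates, and p-values measure the spread between them.

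The 7 genes and all gene lists were chosen with earlier results of these data known. Named were the 7 genes, Chd8, at most 4 called genes per list and comparison (the gene with the smallest p where none passed) and the 3 genes most correlated with each member. Alternatives were DESeq2 1.42.0, other scaling, no filter, no covariates, a replicate block, other batch terms and leaving out libraries. Scaling by library totals and leaving out the animal without Cre reads were chosen after seeing the data. Figures were drawn with Python 3.11.15 and matplotlib 3.10.9.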

Additional observations from a re-analysis of the deposited data

How the results depend on the processing

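Outside the germline cortex comparison of HET with WT, 65 of 2475 values of the 7 genes under alternatives had the opposite sign, all in results that were not called. In germline cortex 1 of the 7 genes was called with no filter on low counts, with no other covariates or with the replicate block, and 0 within each batch alone, and leaving out 1 library gave 1 to 2 (1 in 24 of 31 fits, where Megf6 was not called). These libraries chose the genes, so the counts are a description. With no filter 1 gene was called in the germline nuclear fraction, and with single batch labels 1 in the synaptic fraction. Replicate numbers shared by groups were not taken to pair animals in the main fits, a point that the correlations do not settle (median 0.10 in germline cortex, with 7 of 14 pairs over 0.1, and -0.05 in nuclear libraries). In germline synaptic libraries Egfl7 and Egfl8 were -0.10 and -0.056 with no other covariates and -0.13 and -0.21 with the replicate block, and in cytosolic libraries Megf6 was 0.50 with the replicate block. In the conditional line, with no other covariates, nuclear HET Megf6 was -0.22 and synaptic HOM Egfl6 and Egfl7 were -0.010 and -0.013, and with the replicate block synaptic HOM Egfl7 was -0.017. Without the animal that has 0 Cre reads, nuclear HET Egfl7 was 0.083 and synaptic HET Egfl6 -0.018, and without the animal that has 2 genotype labels synaptic HOM Egfl6 was -0.079. Leaving out 1 library at a time moved values across 0 as follows. Germline cortex Egfl8 ran from -0.0051 to 0.17 and Megf9 from -0.045 to 0.039, nuclear Megf11 from -0.013 to 0.089, synaptic Egfl7 from -0.043 to 0.16 and Egfl8 from -0.20 to 0.59, and cytosolic Megf6 from -0.22 to 0.21 and Megf10 from -0.0080 to 0.13. Conditional cortex Egfl7 ran from -0.034 to 0.29 and Megf6 from -0.054 to 0.11. Conditional nuclear HET Egfl6 ran from -0.010 to 0.30, Egfl7 from -0.15 to 0.085 and Megf6 from -0.15 to 0.37, and HOM Egfl6 from -0.093 to 0.44 and Megf10 from -0.018 to 0.17. Conditional synaptic HET Egfl6 ran from -0.018 to 0.20, Egfl7 from -0.044 to 0.11, Egfl8 from -0.54 to 0.14, Megf6 from -0.32 to 0.61 and Megf10 from -0.059 to 0.079, and HOM Egfl6 from -0.079 to 0.14, Egfl7 from -0.063 to 0.067 and Megf6 from -0.11 to 0.74. Sex by genotype ran from -0.19 to 0.17 for Egfl8 and from -0.034 to 0.13 for Megf9, and compartment by genotype from -0.028 to 0.31 for Egfl8. The count of genes called between compartments of the conditional line ran from 5 to 7 in HET, 3 to 7 in HOM and 6 to 7 in WT. The cause of these shifts was not tested. The replicate block was not run for sex, where no animals are shared. Depth limits Egfl8 in cytosolic libraries, with 1 to 9 reads in HET and 2 to 14 in WT.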
